A study of Mus musculus with 6 samples.

Results

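The 8 genes described here encode the enzymes that modify and join the lysines of collagen: the 5 lysyl oxidases Lox, Loxl1, Loxl2, Loxl3 and Loxl4, and the 3 lysyl hydroxylases Plod1, Plod2 and Plod3. They were chosen by gene family and not by how they moved, as every probe whose RefSeq transcript belonged to 1 of these genes. This gave 13 probes for 8 of the 22910 named genes on the array, and 7 of the 8 genes were among the 14345 that were bright enough to be tested.

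The data came from mouse lung airway epithelial organoids of the C57BL/6 strain, plated flat in 6-well plates (2D-MAO). From day 3, 3 cultures received TGF-β1 and 3 did not, and all were collected on day 7; the methods of the array experiment give no concentration. As the labels read, both groups were in medium without noggin, an inhibitor of BMP ligands, and without A83-01, an inhibitor of the type I receptors of TGF-β, so that the controls were not cultured in the full organoid medium. Each culture, described as a biological replicate with no mention of separate mice, was measured on 1 Agilent array with a single dye, and all 6 arrays lay on 1 slide, with replicate 3 of both groups in slide row 2 and the other 4 arrays in slide row 1.

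In the endoplasmic reticulum the lysyl hydroxylases add a hydroxyl group to chosen lysines, which fixes where sugars are attached and which kind of cross-link can later form. Outside the cell the lysyl oxidases, enzymes that need copper, turn lysines and hydroxylysines of collagen, and lysines of elastin, into reactive aldehydes that join neighbouring chains. In lung, fibroblasts are the best known source of these enzymes, and TGF-β1 is a well known inducer of matrix genes.

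TGF-β1-treated 2D-MAO had higher levels of Lox and Loxl1 than non-treated 2D-MAO, whereas no lysyl hydroxylase passed the test. Lox was 8.74-fold and Loxl1 3.41-fold higher. Plod1, Plod2 and Plod3 were each higher on all 3 TGF-β1 arrays than on any control array, but by 1.67-fold at most. Loxl2 and Loxl4 overlapped between the groups, and Loxl3 did not rise clear of background on any array. A gene was called when limma, fitted over all 14345 genes, gave a Benjamini-Hochberg adjusted p under 0.05 and the change was at least 2-fold. By this rule 2 of the 7 tested genes were higher, against 1.19% of all genes tested, and 0 were lower, against 0.188%. Without regard to the test, 5 of the 7 lay higher on every TGF-β1 array than on every control array, against 12.9% of all genes, and 0 lay lower on every array, against 13.5%. The median change of all genes tested was −0.03 on the log2 scale. Levels are given below as log2 signals after quantile normalisation between arrays, and since each probe has its own brightness they are compared between arrays and not between genes.

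**Figure D1:**
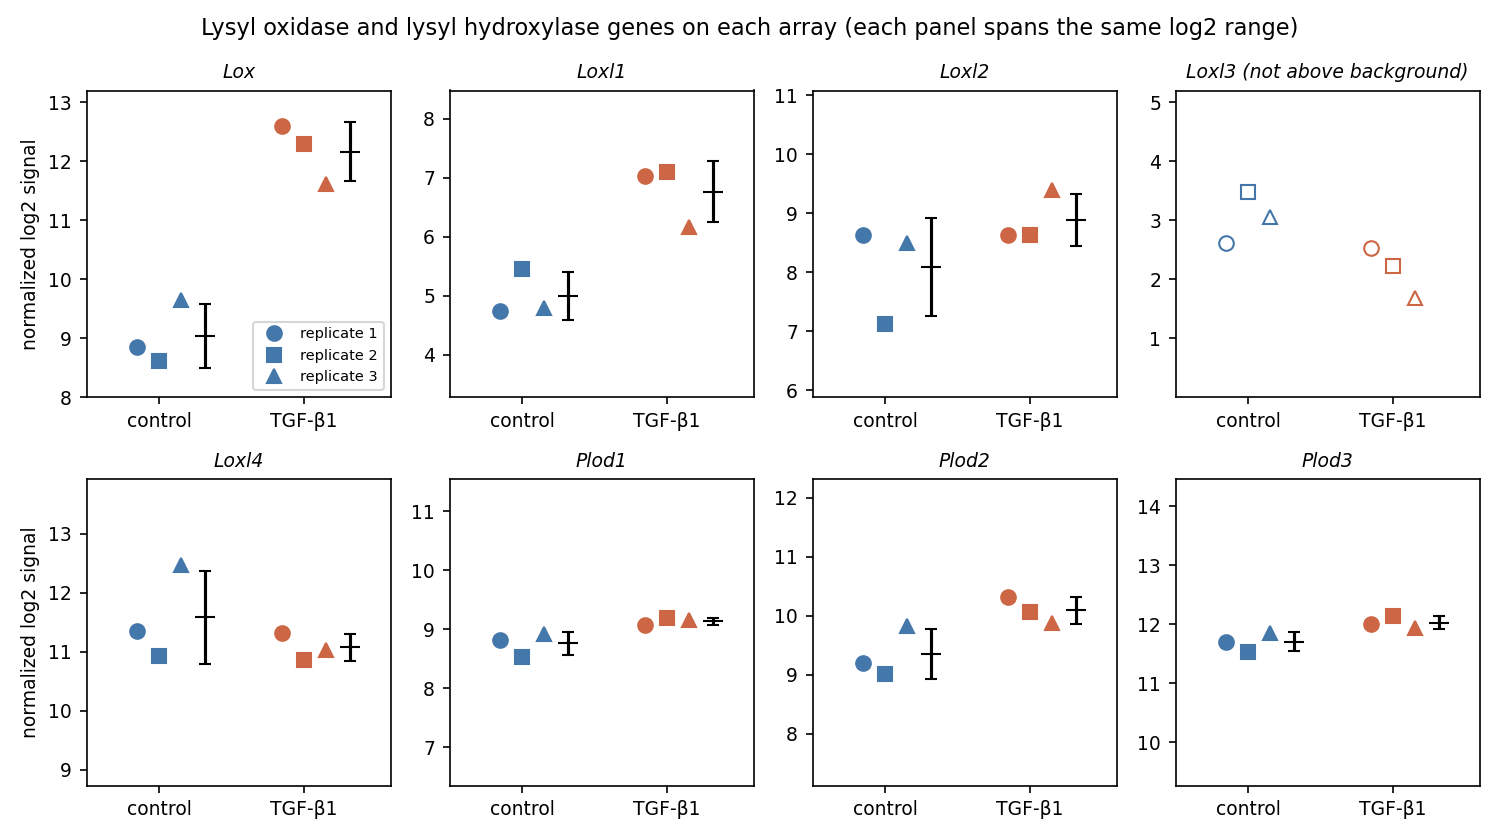
Normalised log2 signal (y axis) of the brightest probe of each gene on the 3 control and 3 TGF-β1 arrays (x axis), with the replicate number as the shape of the point and the group mean ± SD as the black bar; each panel spans the same log2 range. The control and TGF-β1 points of Lox lie farthest apart (means 9.04 and 12.16), those of the 3 lysyl hydroxylases are separated by small gaps, those of Loxl2 and Loxl4 overlap, and the open points of Loxl3 are not well above background.

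Lox, lysyl oxidase itself, acts on fibrillar collagen and on elastin. Its brighter probe read 8.85, 8.61 and 9.64 on the 3 control arrays and 12.59, 12.29 and 11.61 on the 3 TGF-β1 arrays. The highest control array lay well below the lowest TGF-β1 array, and these were both the arrays of replicate 3. The group means were 9.04 ± 0.54 and 12.16 ± 0.51 (SD, n = 3 each), a log2 change of 3.13 (SE 0.34, 95% interval 2.32 to 3.94) with a limma adjusted p of 0.011, the 30th largest increase of the 14345 genes. The spot was 12.4 to 24.2 times as bright as its local background on the control arrays and 86.6 to 187 times on the TGF-β1 arrays, so that Lox was read clearly in both groups. A second probe for the same transcript read 6.51, 6.31 and 7.49 on the control arrays and 10.07, 9.74 and 9.36 on the TGF-β1 arrays. It gave a log2 change of 2.95 (SE 0.33, limma adjusted p = 0.0112 over all probes), again with no overlap. The adjusted p of Lox passed 0.05 by a margin that single arrays could remove: it was 0.0524 without control replicate 1 and 0.057 without TGF-β1 replicate 2. With all 6 arrays it was also above 0.05 with no filter on dim probes (0.0653), with replicate number as a term (0.0645) and where each gene kept its own variance in place of the one limma shares over genes (0.144).

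Loxl1, a lysyl oxidase best known for its part in elastic fibres, read 4.73, 5.46 and 4.79 on the control arrays and 7.02, 7.10 and 6.17 on the TGF-β1 arrays. The groups did not overlap, although TGF-β1 replicate 3 lay closer to the controls than replicates 1 and 2 did. The means were 4.99 ± 0.40 and 6.76 ± 0.52 (SD, n = 3 each), a log2 change of 1.77 (SE 0.30, 95% interval 1.04 to 2.49) with a limma adjusted p of 0.0425. Loxl1 was dim, at 2.09 to 2.69 times local background on the control arrays and 3.52 to 6.61 times on the TGF-β1 arrays, but well above background on all 6. With the normexp background correction, which starts from the median brightness of the spot and its surroundings, the log2 change was 0.85, under 2-fold. Of the 6 fits that left out 1 array, only that without TGF-β1 replicate 3 kept its adjusted p under 0.05. Without control replicates 1, 2 and 3 it was 0.155, 0.0708 and 0.085, and without TGF-β1 replicates 1 and 2 it was 0.169 and 0.151. With all 6 arrays it was above 0.05 with no filter on dim probes (0.138) and with replicate number as a term (0.0599). Where each gene kept its own variance it was 0.216.

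Loxl2 has, besides its work on collagen such as that of basement membranes, reported roles inside the cell. It read 8.63, 7.13 and 8.49 on the control arrays and 8.63, 8.62 and 9.39 on the TGF-β1 arrays. Control replicate 2 stood apart at the low end, and the other 2 controls lay level with TGF-β1 replicates 1 and 2. The log2 change was 0.80 (SE 0.43, 95% interval −0.22 to 1.81, limma adjusted p = 0.307), an interval that holds both no change and a change of over 3-fold. The second probe of Loxl2 gave a change of 0.40, with overlap as well. Loxl2 was the 1 lysyl oxidase whose highest TGF-β1 array was that of replicate 3, the array on which Lox and Loxl1 were lowest within the group.

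Loxl4 was the 1 tested gene of the family with a lower mean in the TGF-β1 group. Its brightest probe read 11.36, 10.93 and 12.46 on the control arrays and 11.32, 10.86 and 11.03 on the TGF-β1 arrays. Control replicates 1 and 2 fell within or just above the range of the TGF-β1 arrays, and the lower mean came with the high value of control replicate 3. The log2 change was −0.51 (SE 0.38, 95% interval −1.41 to 0.38, limma adjusted p = 0.436), and it was −0.07 without control replicate 3. The other 2 probes, of which 1 stands for a different transcript of the gene, gave changes of −0.33 and −0.54 and were also highest on control replicate 3.

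Loxl3, a lysyl oxidase known from skeletal and cartilage development, had 1 probe, which was not well above background on any of the 6 arrays. Its spot was 1.17 to 1.47 times as bright as its surroundings, and no fold was computed. Such a reading bounds the signal of this probe and does not show that the transcript was absent.

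Plod1, Plod2 and Plod3 differ in the lysines they favour. PLOD1 acts mainly on the helical part of fibrillar collagens, PLOD2 on the short telopeptides at its ends, which sets the kind of cross-link that Lox products form, and PLOD3 also carries activities that add sugars to hydroxylysine. Plod2 read 9.20, 9.02 and 9.82 on the control arrays and 10.32, 10.07 and 9.88 on the TGF-β1 arrays. The arrays of the 2 groups met closely at replicate 3, where the highest control lay just under the lowest TGF-β1 array. The log2 change was 0.74 (SE 0.23, 95% interval 0.19 to 1.29), or 1.67-fold, with a limma adjusted p of 0.15.

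Plod1 read 8.81, 8.53 and 8.92 on the control arrays and 9.07, 9.18 and 9.15 on the TGF-β1 arrays, a log2 change of 0.38 (SE 0.13, 95% interval 0.07 to 0.69, limma adjusted p = 0.172). Plod3 read 11.70, 11.54 and 11.86 on the control arrays and 12.00, 12.14 and 11.93 on the TGF-β1 arrays, a log2 change of 0.33 (SE 0.13, 95% interval 0.03 to 0.63, limma adjusted p = 0.201). Both genes shifted by little and varied little between arrays. The intervals of Plod1 and Plod3 lay below a 2-fold change, and that of Plod2 reached past it. For Plod3 the direction rested on 1 of its 2 probes: the dimmer one, at 11.6 to 16.6 times background, read 8.86, 8.67 and 8.90 on the control arrays and 8.84, 8.73 and 8.57 on the TGF-β1 arrays, a change of −0.10. An exact two-sided permutation test of 3 against 3 arrays gave 0.1 for each of the 5 genes with no overlap, the smallest p it can give, 0.3 for Loxl2 and 0.4 for Loxl4.

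**Figure D2:**
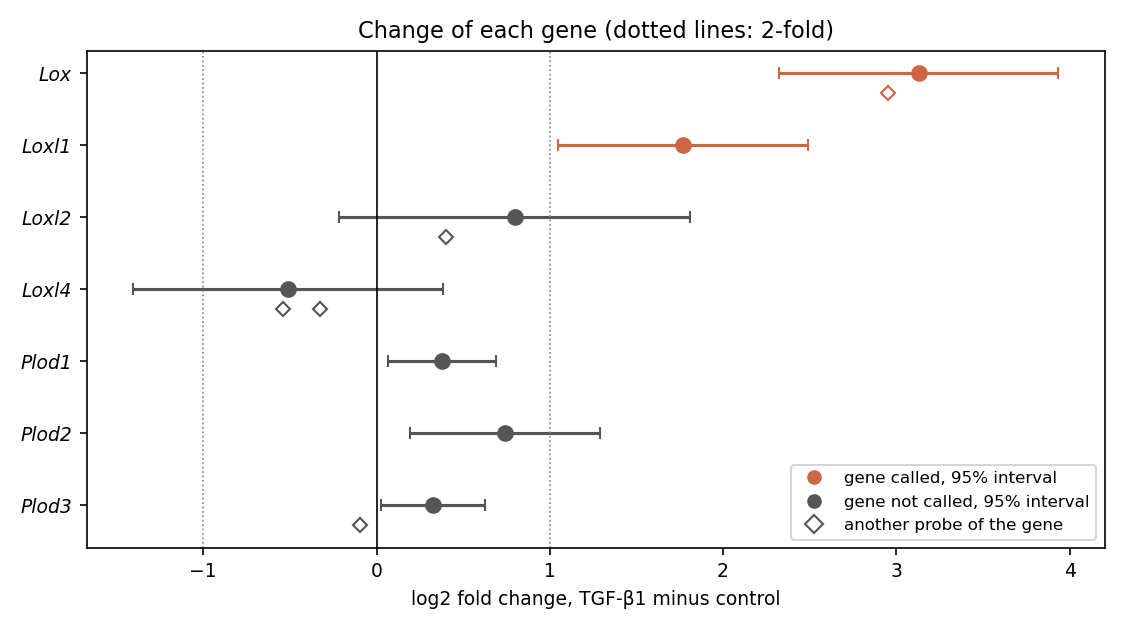
Log2 fold change of TGF-β1 over control (x axis) for the 7 tested genes (y axis), with the 95% interval of the limma fit; open diamonds are the changes of a gene's other probes and dotted lines mark 2-fold. The intervals of Lox (2.32 to 3.94) and Loxl1 (1.04 to 2.49) lie above 2-fold, those of the 3 lysyl hydroxylases lie between 0.03 and 1.29, and the second probe of Plod3 falls on the other side of 0 from the first.

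For Lox, Loxl1 and the 3 lysyl hydroxylases, the 2 arrays of replicate 3 lay closer together than the arrays of slide row 1. Set against the control mean, TGF-β1 replicates 1, 2 and 3 showed Lox changes of 3.56, 3.26 and 2.57, and Loxl1 changes of 2.03, 2.10 and 1.17. Within slide row 1, with 2 arrays in each group, the log2 change was 3.71 for Lox, 1.96 for Loxl1 and 1.09 for Plod2 (limma adjusted p = 0.00552, 0.0149 and 0.0145). Between the single arrays of slide row 2, both replicate 3, it was 1.96 for Lox, 1.37 for Loxl1 and 0.05 for Plod2, with no test. For Loxl2 and Loxl4 these single arrays differed by 0.90 and −1.43, beside 0.75 and −0.05 within slide row 1. Slide row 2 holds replicate 3 alone, so that its place on the slide and the cultures themselves cannot be told apart. With slide row as a term in the fit, Lox and Loxl1 kept adjusted p-values of 0.0183 and 0.0235, and no lysyl hydroxylase passed.

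**Figure D3:**
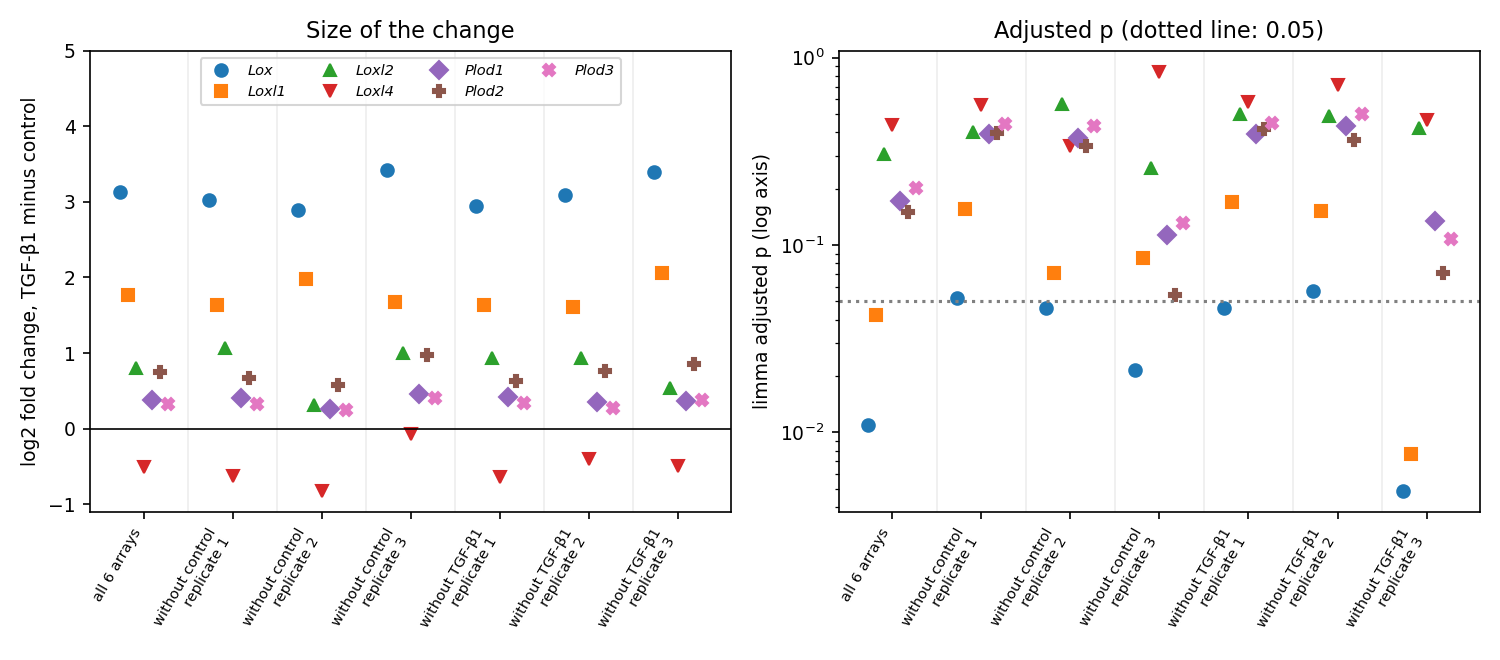
Log2 fold change (left, y axis) and limma adjusted p on a log axis (right, y axis) of the 7 tested genes with all 6 arrays and with each array left out (x axis). Lox stays between 2.89 and 3.42 and Loxl1 between 1.61 and 2.06, while the adjusted p of Lox crosses 0.05 in 2 of the 6 fits and that of Loxl1 in 5.

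The RefSeq promoter table held no entry for Loxl1, Loxl2, Loxl3 and Plod2, and no sequence is printed for Lox. For Plod1, Plod3 and Loxl4, 3 of the 8 genes, the 250 bases before the start site are printed. They lie on GRCm38.p6 at chr4:147936777-147937026 on the minus strand for Plod1, chr5:136986769-136987018 on the plus strand for Plod3 and chr19:42612807-42613056 on the minus strand for Loxl4. Each is written 5′ to 3′ along its gene. Capitals mark every match, on either strand, to 1 of 4 short motifs: CAGAC, bound by SMAD proteins of the TGF-β pathway; TGANTCA, bound by AP-1; ACGTG, the core of the hypoxia response element; and GGGCGG, the GC box. None of the matches overlap.
Plod1: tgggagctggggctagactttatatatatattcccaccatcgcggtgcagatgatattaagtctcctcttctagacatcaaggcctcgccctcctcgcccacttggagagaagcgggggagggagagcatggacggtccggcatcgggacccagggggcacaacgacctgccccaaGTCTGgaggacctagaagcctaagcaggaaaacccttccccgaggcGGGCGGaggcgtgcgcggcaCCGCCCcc
Plod3: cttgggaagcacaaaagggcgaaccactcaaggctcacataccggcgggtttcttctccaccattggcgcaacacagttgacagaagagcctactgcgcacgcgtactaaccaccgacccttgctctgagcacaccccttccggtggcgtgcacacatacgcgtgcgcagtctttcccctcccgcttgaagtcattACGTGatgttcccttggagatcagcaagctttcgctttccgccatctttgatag
Loxl4: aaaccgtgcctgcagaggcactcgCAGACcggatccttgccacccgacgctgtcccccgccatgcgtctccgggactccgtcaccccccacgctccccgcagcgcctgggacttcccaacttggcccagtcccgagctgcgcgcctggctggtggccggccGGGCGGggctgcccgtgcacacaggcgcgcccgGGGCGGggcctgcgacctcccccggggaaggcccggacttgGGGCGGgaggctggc

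Among 32817 upstream regions of the same length, CAGAC stood in 42.2%, TGANTCA in 6.75%, ACGTG in 16.6% and GGGCGG in 32.7%. CAGAC was found once before Plod1, starting 74 bases before the start site on the opposite strand, and once before Loxl4, 226 bases before it. It was not found before Plod3, which held the 1 match to ACGTG, 54 bases before the start site. GGGCGG was found at 2 places before Plod1 and at 3 before Loxl4. The GC content was 61.6% for Plod1, 55.6% for Plod3 and 76% for Loxl4, beside a median of 52.4% over all regions. Matches of this length are common, and they describe the letters of these windows and no binding.

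The genes nearest to Lox in profile over the 6 arrays, by the root mean square difference of log2 signals each centred on its own mean, were Pla2g7, Fstl1 and Cdh6, at 0.23, 0.23 and 0.26. Fstl1, a secreted glycoprotein, read 10.37, 10.29 and 11.18 on the control arrays and 14.02, 13.43 and 12.63 on the TGF-β1 arrays. It thus had the same order of arrays as Lox within both groups. Pla2g7, a secreted phospholipase, was well above background on 1 of the 3 control arrays, and Cdh6 is a cadherin. Those nearest to Loxl1 were Rgs3, Smtn and Ptk2b, at 0.16, 0.16 and 0.17, with log2 changes of 1.86, 1.70 and 1.57; Ptk2b was not called (limma adjusted p = 0.0728). These are descriptions over 6 arrays.

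The other genes of collagen biosynthesis were taken from 8 lists of 78 genes, of which 62 were tested. Of these, 8 were called higher and 0 lower (1.19% and 0.188% of all genes tested), and 28 were higher on every TGF-β1 array while 4 were lower on every one (12.9% and 13.5% of all genes). The median change of the 62 was 0.47. Of the 8, 3 collagens entered the test through the TGF-β1 arrays alone, as did Col4a1 and Col4a2 among the 28. With detection required on all 6 arrays 4 of 53 were called. The count was 1 with each gene's own variance, 3 with no filter, 5 with the replicate number as a term, 22 with array weights and in slide row 1 alone, and 3 to 22 without 1 array, lowest without TGF-β1 replicate 2 and highest without TGF-β1 replicate 3.

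Among the enzymes that hydroxylate proline or add sugars to collagen in the endoplasmic reticulum, as the lysyl hydroxylases do, 11 of 12 genes were tested and 1 was called. P4ha3, an alpha subunit of prolyl 4-hydroxylase, rose by 2.01 (SE 0.30, limma adjusted p = 0.0266), read well above background on 2 of 3 control arrays, and kept an adjusted p under 0.05 in 1 of the 6 fits without 1 array; with normexp its change was 0.89. P3h2, a prolyl 3-hydroxylase, had a change of −0.29. The median of the list was 0.41, beside 0.38 for the 3 lysyl hydroxylases, and 0.20 beside 0.40 where arrays were scaled to their 75th percentile. P3h4, a partner of lysyl hydroxylase 1 in the endoplasmic reticulum, had a change of 0.84 (limma adjusted p = 0.136) and was named after its value was seen.

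Of 14 genes of collagen folding and export, all tested, 1 was called. Sparc, a collagen-binding protein, rose by 2.35 (SE 0.37, limma adjusted p = 0.0322), and passed in 2 of the 6 fits without 1 array. Tmem38b and Sec24d had changes of −0.33 and −0.29, and the median of the list was 0.11. Fkbp10, a chaperone that works with lysyl hydroxylase 2 and was named after its value was seen, had a change of 1.23 (limma adjusted p = 0.165), with overlap between the groups.

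The proteases that trim procollagen and release active lysyl oxidase gave 4 tested genes of 9, and 0 were called. Bmp1, which cleaves the propeptide of lysyl oxidase, had a change of 1.20 (SE 0.25, limma adjusted p = 0.0697) with no overlap between the groups. Furin, a protease of the secretory pathway that activates BMP1, had a change of 0.82 with an adjusted p of 0.0475, past the threshold of the test but under 2-fold. Tll1, a relative of Bmp1, and Pcolce, which enhances the cleavage of procollagen, had changes of −0.67 and −0.15.

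Fibrillar collagens are the main substrates of the lysyl oxidases. Of 11 fibrillar collagen genes 7 were tested and 4 called; with detection required on all 6 arrays, 2 were tested and 1, Col5a3, was called. Col5a3 read 5.10, 4.49 and 4.75 on the control arrays and 8.12, 7.47 and 8.19 on the TGF-β1 arrays, a log2 change of 3.14 (SE 0.24, limma adjusted p = 0.00316). Col27a1, Col1a1 and Col1a2 stood well above background on 0 of the 3 control arrays and on 3 of the 3 with TGF-β1. They could be tested only because of the group in which they were high, so their calls add nothing to that pattern. In the main processing, set against the lowest signal that counted as above background, they were at least 7.57-fold, 2.59-fold and 2.38-fold higher. These folds were not tested. The limma adjusted p-values of 0.00586, 0.0091 and 0.0162 belong to the fit on the readings themselves, with changes of 4.14, 2.72 and 2.07. Col1a1 and Col1a2 stayed dim, at 4.74 to 5.89 and 4.89 to 5.48 on the TGF-β1 arrays, and with normexp their changes were 0.60 and 0.43. The normexp changes of Col5a3 and Col27a1 were 1.79 and 1.54. Col11a2 had a change of −0.16. With the genes that have only a bound placed at it, the median of the list was 1.40.

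Of 9 network-forming collagen genes 8 were tested, all 8 had a higher mean (45.8% of all genes tested), and 1 was called. Col4a1 and Col4a2 stood well above background on 0 of the 3 control arrays. They could be tested only because of the TGF-β1 arrays, so their higher means were fixed beforehand. With detection required on all 6 arrays, 6 were tested and 1 called, with a median change of 0.71. Col8a2 rose by 2.45 (SE 0.13, limma adjusted p = 0.00124), which held in all 6 fits without 1 array. With normexp its change was 1.21. Elastin itself (Eln) had a change of −0.15, and of the 10 genes for elastin and for matrix proteins that bind lysyl oxidases, 6 were tested and 1 called. This was Fn1, fibronectin, which rose by 2.22 (SE 0.34, limma adjusted p = 0.0279) and passed in 2 of the 6 fits without 1 array. Fbln5, which brings Loxl1 to elastic fibres and was named after its value was seen, had a change of 0.81 with an adjusted p of 0.0361, under 2-fold.

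Genes of the copper supply to lysyl oxidases gave 0 calls among 6 tested. Atp7a, the pump that loads copper onto them in the Golgi, had a change of 0.54, the copper transporters Slc31a2 and Slc31a1 had 0.46 and 0.26, and Atp7b and Atox1 had −0.51 and −0.20. The median of this list was 0.13, and −0.04 where arrays were scaled to their 75th percentile. Of the 7 other matrix cross-linking enzymes 6 were tested and 0 called. Pxdn, the peroxidase that joins collagen IV, had a change of 0.96, the transglutaminase Tgm2 had 0.85 and Qsox1 had 0.74 (limma adjusted p = 0.132, 0.125 and 0.208), and Tgm3 and Tgm1 had −0.22 and −0.21.

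**Figure D4:**
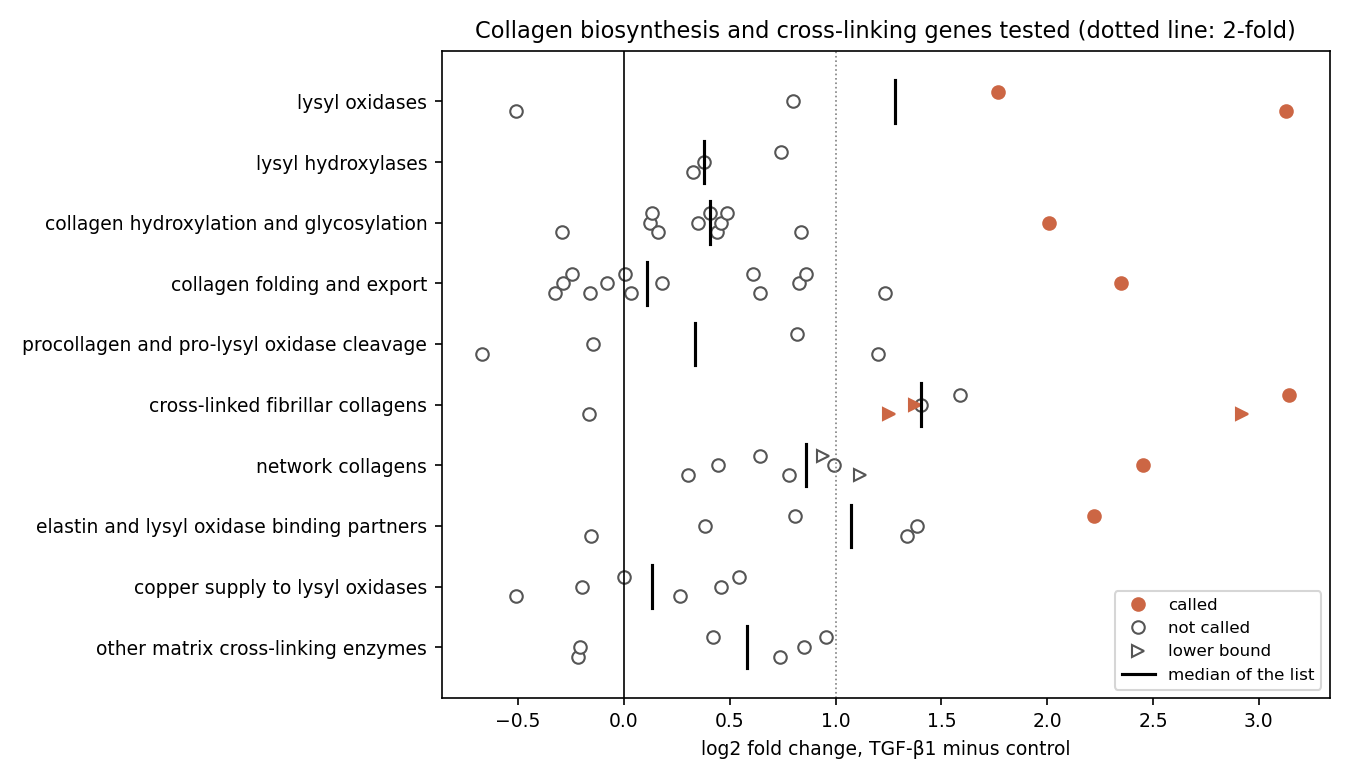
Log2 fold change of TGF-β1 over control (x axis) for each tested gene of the lysyl oxidase, lysyl hydroxylase and related lists (y axis); filled symbols were called, triangles are lower bounds for genes not above background in the controls, black lines are medians and the dotted line marks 2-fold. The called genes are Lox and Loxl1 and 8 others, 4 of them fibrillar collagens of which 3 are shown at a bound, and none of the 3 lysyl hydroxylases (median 0.38) is filled.

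Several lysyl oxidases and Plod2 are also known to respond to low oxygen. Of 18 hypoxia response genes, all tested, 0 were called, 7 had a higher and 11 a lower mean, and the median change was −0.24. Ankrd37, Car9 and Aldoa had changes of −0.91, −0.56 and −0.54, and Adm and Slc2a1 had 0.33 and 0.31. Of 10 direct targets of TGF-β1 signalling, all tested, 4 were called: Tgfbi, Ltbp2, Ccn2 and Pmepa1 rose by 4.58, 4.03, 2.10 and 1.31 (limma adjusted p = 0.00247, 0.00316, 0.0111 and 0.00616), and Id1 had a change of −0.32. Ltbp2 was well above background on 1 of the 3 control arrays. With normexp the changes of Tgfbi, Ltbp2, Ccn2 and Pmepa1 were 3.27, 1.77, 2.08 and 1.32. Ccn2 passed in 3 of the 6 fits without 1 array, and Tgfbi, Ltbp2 and Pmepa1 passed in all 6.

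Since fibroblasts are a known source of collagen and lysyl oxidases, cell type markers were read on the same arrays. Of 12 fibroblast markers, 5 were well above background on each control array and 7 on each TGF-β1 array; the called ones were Col1a1 and Col1a2, which are also among the collagens above. Col3a1, Lum, Meox2, Pdgfrb and Tcf21 were not above background on any array, and Thy1, named after its value was seen, was not called (change 2.47, limma adjusted p = 0.176). All 7 tested fibroblast markers had a higher mean with TGF-β1 (45.8% of all genes tested), with a median change of 1.00. Their mean log2 signal was 6.26 to 6.41 on the control arrays and 7.05 to 8.05 on the TGF-β1 arrays. Col1a1 and Col1a2 are part of these values and could be tested only because of the TGF-β1 arrays, so their higher means were fixed beforehand. With detection required on all 6 arrays, 5 fibroblast markers were tested and 0 called, with a median change of 0.41. Dcn, named after its value was seen, read 8.98, 8.81 and 8.96 on the control arrays and 11.10, 9.68 and 8.98 on the TGF-β1 arrays (change 1.00, limma adjusted p = 0.273). The summed linear signal of the list, 10884 to 17636 in controls and 12563 to 18442 with TGF-β1, was mostly that of Acta2, whose change was 0.02. The endothelial markers Cdh5, Cldn5, Emcn, Kdr and Tek and the leukocyte markers Ptprc, Adgre1 and Lyz2 were not above background on any array, and the summed signals were 89.9 to 114 and 108 to 120 for the 7 endothelial, and 10560 to 12282 and 13562 to 14750 for the 7 leukocyte markers. Of these lists 2 endothelial and 4 leukocyte markers were tested and 0 called. Vwf and Pecam1 had changes of 0.19 and 0.13. Cd68 and Itgam were higher on every TGF-β1 array, with changes of 0.90 and 0.43 (limma adjusted p = 0.147 and 0.134), and Cd3e had −0.24. All 7 epithelial markers were above background on every array, with 0 called. Epcam, Cldn4 and Cdh1 had the largest changes (0.82, 0.66 and 0.49), and Krt19 and Nkx2-1 had −0.31 and −0.01. Of 9 markers of airway and alveolar cell types 7 were tested, and Foxj1 of ciliated cells was called (change 1.47, limma adjusted p = 0.00238), while Scgb1a1 of club cells had −2.27 (adjusted p = 0.158), Hopx had −0.48, and Muc5ac and Sftpc were not above background. The part of any of these in the change of Lox or Loxl1 was not tested, and in bulk RNA more cells of a type and more RNA per cell cannot be told apart.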

How the data were processed

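The arrays were Agilent SurePrint G3 mouse arrays read with Agilent Feature Extraction 11.0.1.1. The deposited files hold, for each spot, the intensity on a linear scale from which the authors' software had already taken the background and within-array trends, with no normalisation between arrays. Control spots and outlier spots were left out, no spot was saturated, and 55.0% to 59.0% of probes were well above background. The number of arrays limits the precision. Signals were log2 transformed and quantile normalised, as the methods describe. Probes were named through RefSeq accessions (GRCm38.p6 table): 32991 of 56599 probes matched. Probes had to stand well above background on 3 or more of the 6 arrays, with the brightest standing for its gene. The test was limma 3.58.1 in R 4.3.3 with Benjamini-Hochberg adjustment over 14345 genes, of which 171 were called higher and 27 lower, after testing on simulated data.

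The 8 genes were named with every value. From each of the other 15 lists were named the called genes, otherwise up to 3 with the largest change, and up to 2 in the opposite direction. The genes and lists were chosen with earlier results of these data known. The processing was varied by using the 75th percentile of each array for scaling, normexp on median brightness with an offset of 50 (the mean was not used here), no filter, averaged probes per gene, detection required on 6 of 6 arrays, trended and robust variances, array weights, the unpaired t-test that the study names for single comparisons (unadjusted, and with an adjustment added here), replicate number or slide row as a term, slide row 1 alone, and each array left out.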

Additional observations from a re-analysis of the deposited data

How the results depend on the processing

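Lox kept its direction in all 19 alternatives and had a p under 0.05 in 14. Loxl1 kept its direction in all 18 and had a p under 0.05 in 10. Both numbers include the unadjusted t-test and set no limit on the size of the change. That of Loxl1 also includes normexp, where the change was 0.85, under 2-fold. The count of genes called higher among the 7, which was 2, was 3 in slide row 1 alone, with Plod2 added, 1 with normexp, and 0 with no filter, with an adjusted t-test and with the replicate block; it ranged from 0 to 2 without 1 array. Lox, at a change of 3.13, had an adjusted p of 0.0653 with no filter, 0.144 with the adjusted t-test and 0.0645 with the replicate block. Loxl1, at 1.77, had 0.138, 0.216 and 0.0599. Without 1 array the change of Lox ranged from 2.89 to 3.42 and that of Loxl1 from 1.61 to 2.06. The deviations of same-numbered arrays correlated for replicate 2 (r = 0.33) and not for replicates 1 and 3 (r = −0.01 and −0.05), so the replicate numbers were not taken to pair the cultures. With array weights Plod1, Plod2 and Plod3 passed at changes of 0.37, 0.97 and 0.38 (adjusted p = 0.0367, 0.0089 and 0.0283); in slide row 1 alone Plod2 and Plod3 passed at 1.09 and 0.46; and by an unadjusted t-test Plod1 and Plod3 passed at 0.38 and 0.33. Over all genes, 171 were called higher and 27 lower. These counts were 49 and 11 with no filter, 594 and 213 with array weights, 312 and 76 by the unadjusted and 4 and 1 by the adjusted t-test, and 627 and 234 in slide row 1 alone. The higher count was 86 with the replicate block, and the lower count was 17 with normexp and 45 with slide row as a term. Without 1 array they ranged from 48 to 550 and from 7 to 156, both highest without TGF-β1 replicate 3. The causes were not tested. Signal over background limits Loxl1 in the controls, and Loxl3, which was not read above it.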
